A study of Arabidopsis thaliana with 8 samples.

Results

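Transcripts of the mitochondrial and plastid genomes were examined in rosette leaves of Arabidopsis thaliana measured on Affymetrix arrays. The members were all loci of the value table whose identifier begins with ATMG, for the mitochondrial genome, or ATCG, for the plastid genome. They numbered 106 of 27826 loci, 92 mitochondrial and 14 plastid. One group of 4 arrays came from a line whose titles state a depleted NAA50 steady-state level and whose ecotype field reads animaa50, and the other 4 arrays came from the wild type, Col-0. NAA50 adds an acetyl group to the N terminus of proteins. All plants had grown for 7 weeks on soil in short days, and leaf harvest into liquid nitrogen took place 2 h into the light period. How the line was made, whether it is a single line, and whether the arrays came from separate plants are not stated in the labels, and p-values therefore reflect no more than the variation among these 8 arrays.

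Plant cells carry genomes in the nucleus, the mitochondria and the plastids. Mitochondrial genes encode subunits of the respiratory chain and parts of the mitochondrial translation apparatus, and plastid genes encode subunits of the photosystems, of Rubisco and of a bacterial-type RNA polymerase. Both genomes are transcribed, spliced, edited and degraded with the help of proteins that are encoded in the nucleus and imported. In Arabidopsis, a large part of the mitochondrial genome also exists as a copy in chromosome 2 of the nucleus.

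The values were taken as log2 and ranged from 0.69 to 13.71, with the same sorted values on every array. NAA50 (AT5G11340) was 56.7-fold higher on the arrays labelled NAA50-depleted (adjusted p = 3.47e-09 in limma), at 10.43, 10.52, 10.24 and 10.33, against 4.71, 4.54, 4.23 and 4.75 in wild type. If the titles mean transcript, the measured level goes against the label, so directions are given only for arrays by their label, NAA50-depleted relative to wild type. Of the mesophyll markers, 2 of 3 averaged above the 75th percentile of the array, while the root marker reached at most 2.70 and the seed markers at most 3.25, near the array median of 2.73. The other mesophyll marker, LHCB1.1 (AT1G29920), lay at 1.61 to 2.60, under the array median, so it did not stand above the root and seed markers. Of the 4 epidermis and cuticle markers, which lay at 6.12 to 9.62 on the arrays labelled NAA50-depleted and at 6.67 to 10.53 in wild type, 2 were called lower and the median difference was -0.37. All 4 of these markers lay above the 75th percentile in wild type, where 19.5% of all loci were called lower and the median was -0.14. The 3 guard cell markers had a median difference of -0.35, and none was called. Among them HT1 was positive, at 0.056. The 2 phloem markers had a median difference of 0.048, and none was called. The part of these marker shifts in the organelle values was not tested.

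Most mitochondrial loci were slightly higher on the arrays labelled NAA50-depleted, but few passed the test. The median difference of the 92 loci was 0.20 on the log2 scale, with quartiles of 0.049 and 0.31, against -0.030 over all 27826 loci. The difference was positive for 74 mitochondrial loci and negative for 18, or 80.4% positive against 44.8% of all loci. In limma with Benjamini-Hochberg adjustment, 4 of 92 rose, against 6.95% of all loci, and 0 fell, against 7.58%. At an unadjusted p under 0.05, 19 were higher and 1 was lower, against 11.3% and 14.6% of all loci. In this fit, the share called higher at the adjusted threshold was thus no larger than in the whole table. At the unadjusted threshold the share that was higher was larger than in the whole table. All 92 loci passed a filter on dim loci that 21048 of the 27826 loci passed. In whole leaves, a change in the number of cells or organelles and a change in transcript per cell or organelle cannot be told apart.

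The count of calls depended on single arrays. Leaving out wild type replicate 2, wild type replicate 4 or labelled-depleted replicate 2 gave 1 call. Leaving out wild type replicate 1 gave 9 (1663 of all 27826 loci), and leaving out labelled-depleted replicate 4 gave 8 (1793 of all loci). The median kept its sign in each of these fits, and ranged from 0.14, with wild type replicate 2 left out, to 0.25, with wild type replicate 1 left out. It was 0.29 after cyclic loess normalization, where 10 loci were called higher, against 2267 of all 27826 loci. The share called higher was larger there than in the whole table.

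Of the 4 called loci, ATMG00170 and ATMG00620 cannot be counted as separate measurements, since their values differed by at most 0.00098 on any array. ATMG00170 measured 7.50, 7.61, 7.58 and 7.40 on the arrays labelled NAA50-depleted, against 7.27, 6.81, 7.06 and 6.74 in wild type. Every labelled-depleted value lay above every wild type value, with wild type replicate 1 the nearest. The difference was 0.55 ± 0.14 (SE, n = 4 arrays per group), which is 1.46-fold, with an adjusted p of 0.0188. This call did not hold when wild type replicate 2 (0.50), wild type replicate 4 (0.47) or labelled-depleted replicate 2 (0.52) was left out.

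ATMG01210 measured 8.52, 8.61, 8.59 and 8.30 on the arrays labelled NAA50-depleted, against 8.22, 7.60, 8.04 and 8.08 in wild type. The groups did not overlap, and labelled-depleted replicate 4 lay just above wild type replicate 1. The difference was 0.52 ± 0.15 (SE, n = 4 arrays per group, adjusted p = 0.0373). The call held when wild type replicate 1 was left out and when labelled-depleted replicate 4 was, and it was lost with any other 1 array left out, at 0.39 to 0.55. It was also lost with the replicate number as a block (adjusted p = 0.0720).

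ATMG00820 measured 2.18, 1.94, 2.20 and 2.34 on the arrays labelled NAA50-depleted, against 1.75, 1.53, 1.45 and 1.60 in wild type. All 8 values lay under the array median, a range in which no signal over background has been shown. Neither the size nor the direction of a transcript change is therefore certain here. The difference was 0.58 ± 0.12 (SE, n = 4 arrays per group, adjusted p = 0.00895). It passed in every fit with 1 array left out, at 0.52 to 0.65, and at an adjusted p under 0.01 it was the 1 mitochondrial locus called.

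The largest positive difference of a mitochondrial locus had the widest error. ATMG01240 measured 3.46, 5.01, 3.77 and 1.86 on the arrays labelled NAA50-depleted, against 4.01, 1.38, 2.02 and 3.08 in wild type. The lowest labelled-depleted value lay under 3 of the wild type values, and the difference of 0.90 ± 0.65 did not pass (SE, n = 4 arrays per group, adjusted p = 0.441). Without single arrays it ranged from 0.41 to 1.46. Beyond 1.5-fold lay 3 mitochondrial loci, ATMG01240, ATMG00230 (0.68 ± 0.28) and ATMG01180 (0.60 ± 0.21), none of them called in the fit to all 8 arrays.

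The most negative difference was that of ATMG01070, which measured 8.66, 8.86, 8.73 and 8.88 on the arrays labelled NAA50-depleted, against 9.03, 9.35, 9.12 and 8.82 in wild type. Wild type replicate 4 fell among the labelled-depleted values, and the difference of -0.29 ± 0.13 did not pass (SE, n = 4 arrays per group, adjusted p = 0.190). ATMG00370 had the next most negative difference among loci above the 75th percentile, at -0.26 ± 0.14 (adjusted p = 0.292).

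**Figure D1:**
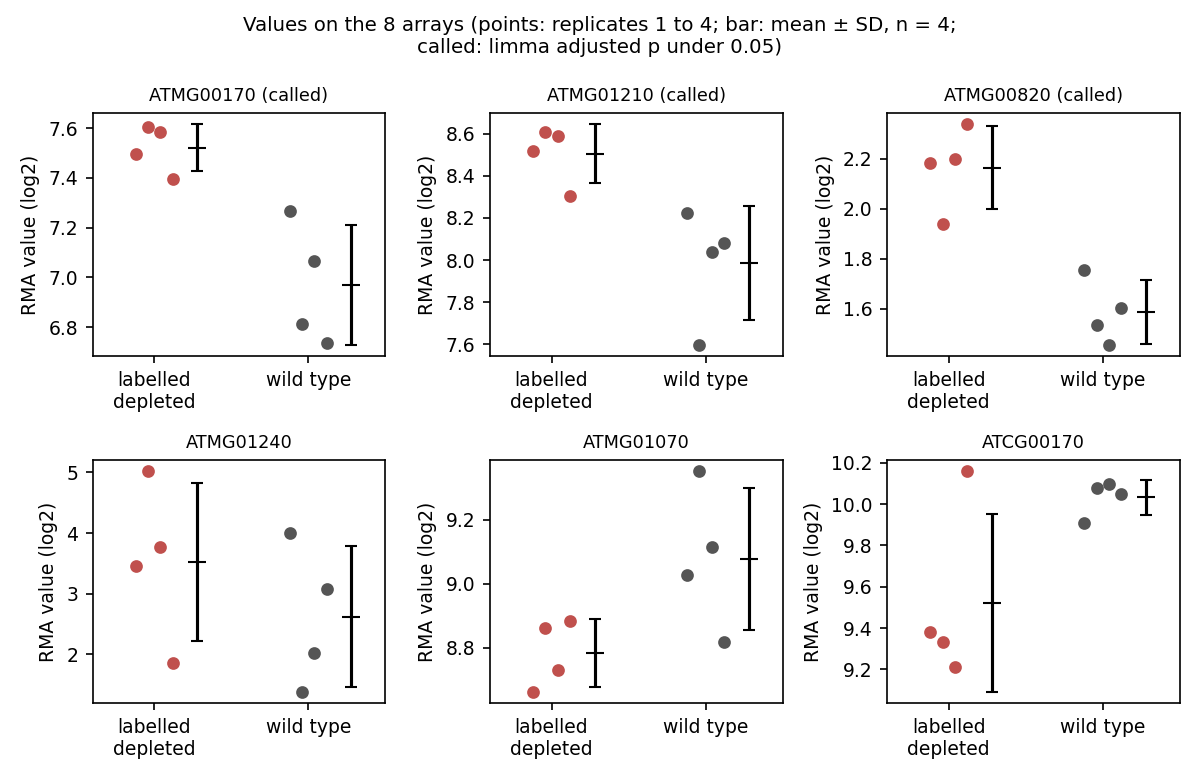
RMA values (log2) of 6 organelle loci on the 8 arrays, labelled NAA50-depleted on the left of each panel and wild type on the right, with points for replicates 1 to 4 and a bar for the mean ± SD (n = 4); each panel has its own axis, which does not start at 0. The groups do not overlap for ATMG00170, ATMG01210 and ATMG00820, and they overlap for ATMG01240, ATMG01070 and ATCG00170.

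The 4 arrays labelled NAA50-depleted lay wholly above the 4 wild type arrays for 10 of the 92 mitochondrial loci and wholly below for 0. Over all loci, 8.48% lay wholly above and 10.4% wholly below, so the count above is near that share. Beside the 4 called loci these were ATMG00210, ATMG00513, ATMG00580, ATMG00990, ATMG01200 and ATMG01320. Their differences were small, from 0.21 ± 0.11 for ATMG01200 to 0.39 ± 0.14 for ATMG00513 (SE, n = 4 arrays per group). ATMG01320 measured 10.96, 10.96, 11.07 and 10.91 on the arrays labelled NAA50-depleted, against 10.75, 10.46, 10.81 and 10.70 in wild type. The difference was 0.30 ± 0.12, with an adjusted p of 0.125. ATMG00180, the locus nearest to the threshold among those not called, measured 10.82, 10.83, 10.97 and 10.60 on the arrays labelled NAA50-depleted, against 10.65, 10.21, 10.34 and 10.39 in wild type. Here labelled-depleted replicate 4 lay below wild type replicate 1, and the difference of 0.41 ± 0.13 had an adjusted p of 0.0613. Cyclic loess normalization and a trended, robust variance model each added the same 6 mitochondrial loci to the 4 called, namely ATMG00180, ATMG00510, ATMG00513, ATMG00580, ATMG00990 and ATMG01320.

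Loci were then grouped by their wild type mean. Above the 75th percentile of 4.92 lay 56 mitochondrial loci, of which 47 were positive, with a median of 0.22 (quartiles 0.099 and 0.29) and a range of -0.29 to 0.55. All 6944 loci of that level had a median of -0.14, and 34.7% were positive. Called higher were 3 of the 56, against 10.0% of all loci of that level, and called lower were 0, against 19.5%. At an unadjusted p under 0.05, 12 of the 56 were higher and 1 was lower, against 14.7% and 31.9% of all loci of that level. The arrays labelled NAA50-depleted lay wholly above wild type for 9 of the 56 and wholly below for 0, where the shares of all loci of that level were 12.3% and 25.7%.

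Between the array median and the 75th percentile lay 19 mitochondrial loci, of which 13 were positive, with a median of 0.17 and a range of -0.13 to 0.68. All 6918 loci of that level had a median of -0.046. None of the 19 was called by limma, against 11.8% higher and 9.54% lower, and at an unadjusted p under 0.05 3 were higher and 0 were lower, against 17.6% and 19.2%. Under the array median lay 17 mitochondrial loci, of which 14 were positive, with a median of 0.13 and a range of -0.28 to 0.90. Of these 1 was called higher, ATMG00820, against 3.04% of all loci of that level, and 0 lower, against 0.652%, with 4 higher and 0 lower at an unadjusted p under 0.05, against 6.58% and 3.74%. The wild type mean also enters the difference. Grouped by the mean over all 8 arrays, the classes held 57, 22 and 13 mitochondrial loci, with medians of 0.23, 0.19 and 0.096 and with 3, 0 and 1 called higher. All loci of these classes had medians of -0.096, -0.057 and -0.0088, with 961 of 6945, 719 of 6989 and 254 of 13892 called higher. In the class above the 75th percentile, 39.9% of all loci were positive, and 1171 were called lower.

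**Figure D2:**
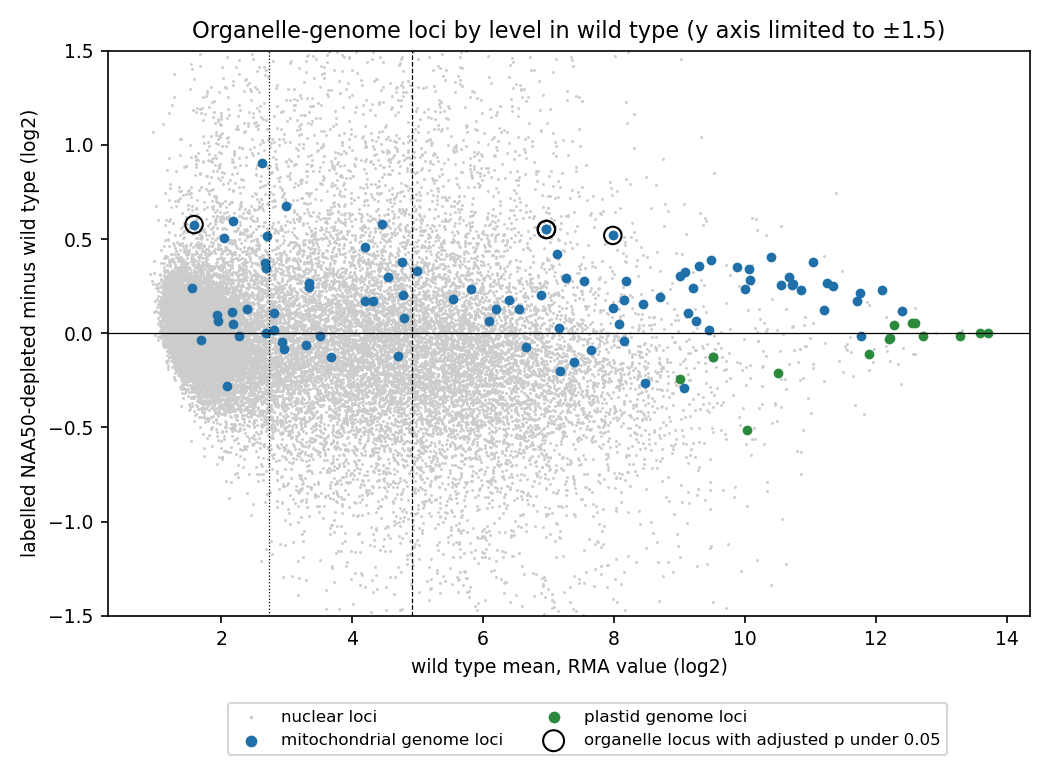
Difference of each locus (labelled NAA50-depleted minus wild type, log2) against its wild type mean (log2), for 92 mitochondrial loci (blue), 14 plastid loci (green) and nuclear loci (grey), with the array median dotted at 2.73, the 75th percentile dashed at 4.92, and circles around organelle loci with an adjusted p under 0.05. The circles of ATMG00170 and ATMG00620 coincide; most blue points lie above 0, and the green points above 12 lie close to 0.

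The mitochondrial loci above the 75th percentile moved together from array to array, and this movement did not follow the groups alone. For each locus the mean over the 8 arrays was subtracted, and the median of the 56 deviations was taken per array. It was 0.079, 0.17, 0.22 and -0.033 on labelled-depleted replicates 1 to 4, against 0.087, -0.26, -0.10 and -0.17 on wild type replicates 1 to 4. Wild type replicate 1 lay among the labelled-depleted arrays, above labelled-depleted replicates 1 and 4. The number of the 56 loci above their own mean was 40, 48, 51 and 23 on the labelled-depleted arrays, against 40, 8, 18 and 6 on the wild type arrays.

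All loci of that level did not show this spread within a group. Their median deviations were -0.056, -0.079, -0.095 and -0.042 on the labelled-depleted arrays, against 0.081, 0.071, 0.060 and 0.066 on the wild type arrays. They were thus negative on every labelled-depleted array and positive on every wild type array. The same sorted values on every array limit how far the median of so large a class can move. The class was also chosen by its wild type mean. After each group's mean was removed, the median correlation between pairs of the 56 mitochondrial loci over the 8 arrays was 0.48, with 82.1% of 1540 pairs positive. Nuclear loci of that level had a median of 0.0060, with 50.5% of pairs positive. The same sorted values on every array also limit joint movement in so broad a set. Whether other small sets of loci move together in this way was not tested. With the first locus of each set of shared values kept, the mitochondrial median was 0.46. The loci of a pair share the same 8 RNA samples, hybridizations and normalization. Labelling cDNA was made by the manufacturer's standard protocol, and the sources used here do not give how it was primed, which matters for organelle transcripts. The part of RNA quality or of array batches in this shared movement was not tested.

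**Figure D3:**
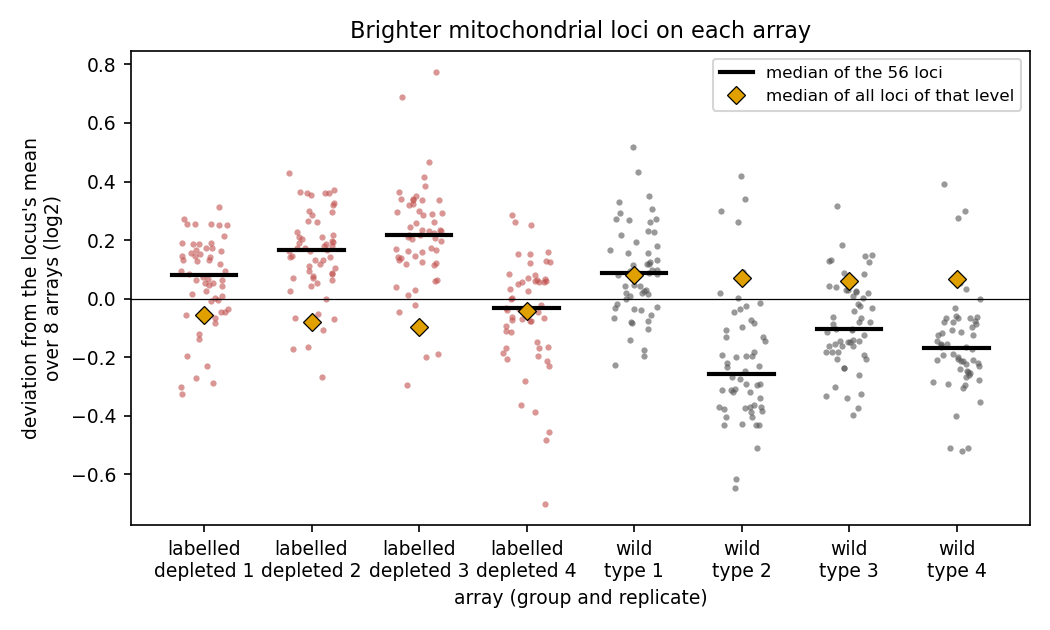
Deviation of each of the 56 mitochondrial loci above the 75th percentile from its own mean over 8 arrays (log2), by array, labelled NAA50-depleted in red on the left and wild type in grey on the right, with a black bar for the median of the 56 loci and a diamond for the median of all loci of that level. Wild type replicate 1, at 0.087, lies with the labelled-depleted arrays, and labelled-depleted replicate 4, at -0.033, lies below it.

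Many mitochondrial loci could not be told apart from other loci on these arrays. Values within 0.05 of another locus's on all 8 arrays were found for 38 of the 92 mitochondrial loci, or 41.3%, against 0.633% of all loci. For 34 of them the other locus lay on chromosome 2, and for 33 it belonged to the run from AT2G07667 to AT2G07835, in which the copy of the mitochondrial genome lies. The largest gap over the 8 arrays had a median of 0.0029 over these 33 loci and ranged from 0.00098 to 0.049. Such loci carry the same values under different names, and whether the signal comes from the mitochondrial genome or from chromosome 2 cannot be read from these values.

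ATMG01210, 1 of the 4 called loci, shared its values with AT2G07826, annotated by RefSeq as a transcribed pseudogene, whose difference was also 0.52 and called. ATMG01070, with the most negative difference, shared its values with AT2G07743, and ATMG00230 with AT2G07757, both annotated as tRNA genes. Of the 34 chromosome 2 partners, 16 were transcribed pseudogenes, 9 tRNA genes, 5 protein-coding genes and 4 pseudogenes. The 9 mitochondrial loci whose partner was a tRNA gene had a median difference of -0.049, with 3 positive and a range of -0.29 to 0.68. The 16 with a transcribed pseudogene had a median of 0.22, with 12 positive, and all of the 5 with a protein-coding gene and the 4 with a pseudogene were positive, at 0.096 to 0.37.

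The 54 mitochondrial loci that shared values with no other locus had a median of 0.17, with 46 positive, and 1 of them, ATMG00820, was called higher. With loci that share values counted once, 3 mitochondrial loci were called higher.

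The chromosome 2 run held 99 measured loci. Of these 5 were called higher and 0 lower, against 6.95% and 7.58% of all loci, with 20 higher and 3 lower at an unadjusted p under 0.05, against 11.3% and 14.6%, and the median was 0.18 with 73 positive. The 5 were AT2G07683, AT2G07722, AT2G07727, AT2G07772 and AT2G07826. Every value of AT2G07683 lay under the array median of 2.73, a range in which no signal over background has been shown. Leaving out wild type replicate 1 gave 9 calls, and leaving out wild type replicate 2 or 3 gave 1. With wild type replicate 4 or labelled-depleted replicate 1 left out there were 3, and with labelled-depleted replicate 2 or 3 left out there were 2. The 66 loci of the run that shared values with no mitochondrial locus had a median of 0.15, with 49 positive and 4 called higher. The run was taken by locus number and also held ABCC13 (AT2G07680) and MCM5 (AT2G07690), so not all of its loci need be copies.

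No plastid locus was called by limma. All 14 lay above the 75th percentile, where 10.0% of all loci were called higher and 19.5% lower, and their median difference was -0.020, with 3 positive, 9 negative and 2 at exactly 0; after cyclic loess normalization the median was 0.090. At an unadjusted p under 0.05, 0 were higher and 1 was lower, against 14.7% and 31.9% of all loci of that level. Of the 14, 10 ranked among the 50 highest loci on every array. Since all arrays were given the same sorted values, a locus that keeps its rank at the top of the array keeps its value, and a difference cannot be seen there.

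ATCG00140 had the highest value of the table, 13.71, on all 8 arrays, tied with AT3G32990, and ATCG00580 had rank 3 and the value 13.59 on all 8. ATCG00020 measured 13.27 on all 4 labelled-depleted arrays and on 3 wild type arrays, and 13.33 on wild type replicate 2. For these 3 loci the values are those of the rank. The next lower loci, ATCG00670, ATCG00970, ATCG01160, ATCG00250, ATCG00990 and ATCG01140, differed by -0.033 to 0.055, with standard errors of 0.10 to 0.11. Their 95% intervals reached from -0.26 to 0.29 at most, so differences of that size were not detectable in either direction. These loci ranked from 8 to 30 over the arrays, where a locus that keeps its rank keeps its value. Larger changes in transcript may therefore not show either. ATCG00990 and ATCG01140 shared values within 0.05.

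ATCG00170 had the largest plastid difference, and 1 array set apart from the rest of its group determined its size. It measured 9.38, 9.33, 9.21 and 10.16 on the arrays labelled NAA50-depleted, against 9.91, 10.08, 10.10 and 10.05 in wild type. Labelled-depleted replicates 1 to 3 lay below all wild type arrays, and labelled-depleted replicate 4 lay above them. The difference was -0.51 ± 0.19 (SE, n = 4 arrays per group), with a 95% interval of -0.93 to -0.098 and an adjusted p of 0.103. Without labelled-depleted replicate 4 it was -0.72 and called (adjusted p = 0.00263).

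The same array was highest of its group at ATCG00160, which measured 10.23, 10.24, 10.04 and 10.70 on the arrays labelled NAA50-depleted, against 10.31, 10.50, 10.60 and 10.63 in wild type. The difference was -0.21 ± 0.15 (SE, n = 4 arrays per group, adjusted p = 0.445). It was -0.34 with labelled-depleted replicate 4 left out and -0.12 with labelled-depleted replicate 3 left out. ATCG00230 measured 8.60, 8.82, 8.84 and 8.83 on the arrays labelled NAA50-depleted, against 8.99, 9.26, 9.06 and 8.75 in wild type. Its groups overlapped only through wild type replicate 4, and the difference was -0.25 ± 0.13 (adjusted p = 0.281).

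ATCG00240 measured 11.74, 11.81, 11.74 and 11.90 on the arrays labelled NAA50-depleted, against 12.06, 12.03, 11.95 and 11.56 in wild type. The difference was -0.11 ± 0.13 (adjusted p = 0.690), and wild type replicate 4 was the lowest of all 8. With that array left out the difference was -0.22, and with wild type replicate 1 or 2 left out it was -0.055 or -0.064. ATCG00240 shared its values with AT3G20365, a nuclear pseudogene of a tRNA gene. ATCG00610 measured 9.36, 9.18, 9.26 and 9.72 on the arrays labelled NAA50-depleted, against 9.22, 9.52, 9.57 and 9.72 in wild type. Its difference was -0.13 ± 0.15 (adjusted p = 0.682). With 1 array left out it ranged from -0.24, without labelled-depleted replicate 4, to -0.057, without wild type replicate 4. Leaving out wild type replicate 1 gave -0.22, and leaving out labelled-depleted replicate 2 gave -0.061. It shared values with ATMG00930 and with AT2G07748, a chromosome 2 tRNA gene, so 1 signal stands under a plastid, a mitochondrial and a nuclear name. In all, 5 of the 14 plastid loci shared values with another locus.

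**Figure D4:**
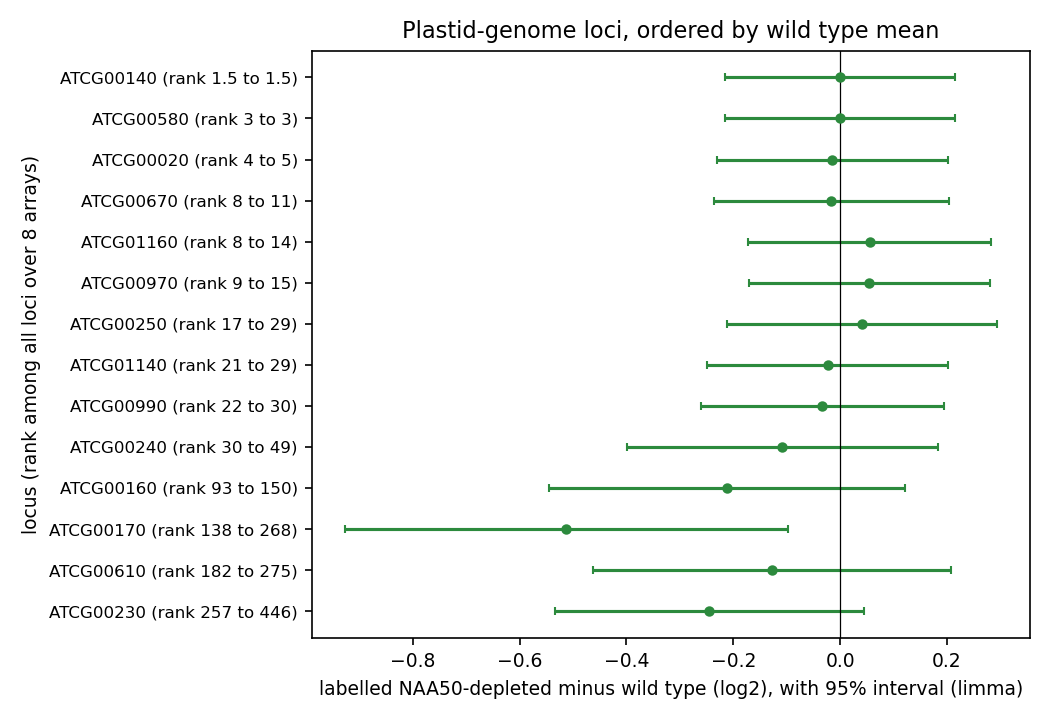
Difference of the 14 plastid loci (labelled NAA50-depleted minus wild type, log2) with its 95% interval from limma, ordered down the page from the highest to the lowest wild type mean, with each locus's range of ranks over the 8 arrays in brackets. ATCG00170 is the 1 locus whose interval excludes 0, and ATCG00140 and ATCG00580 sit at exactly 0 with the same rank on all arrays; after cyclic loess normalization ATCG00020, ATCG00240, ATCG00670, ATCG00990 and ATCG01140 change sign.

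Nuclear genes whose proteins act on the organelle genomes, or work together with their products, were read from 6 lists with 82 measured genes. Of these 2 rose and 11 fell, against 6.95% and 7.58% of all loci, and the median difference was -0.11. Most of the 82 genes lay above the 75th percentile in wild type, where 10.0% of all loci were called higher and 19.5% lower. Apart from RECA3, so did every gene that fell. No test of a list was made.

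Of 9 organellar RNA polymerases and sigma factors, 2 fell and 0 rose, with a median of -0.047. Of all loci, 7.58% were called lower and 6.95% higher. The 2 that fell lay above the 75th percentile in wild type, where 19.5% were called lower. SIGA, a sigma factor that directs the plastid-encoded RNA polymerase to promoters, measured 6.96, 6.08, 6.76 and 6.87 on the arrays labelled NAA50-depleted, against 8.59, 8.59, 8.21 and 8.33 in wild type. The groups lay far apart, and the difference was -1.76 ± 0.19 (SE, n = 4 arrays per group, adjusted p = 0.000110). SIGF, another sigma factor, fell by 0.47 ± 0.13 (adjusted p = 0.0349). That call did not hold after cyclic loess normalization, nor with any 1 array left out other than wild type replicate 3 and labelled-depleted replicate 4.

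Of 12 proteins associated with the plastid-encoded RNA polymerase (PEP), 4 fell and 0 rose, with a median of -0.083. Of all loci, 7.58% were called lower and 6.95% higher. The 4 that fell lay above the 75th percentile in wild type, where 19.5% of all loci were called lower. FSD3, a plastid iron superoxide dismutase, measured 3.84, 3.47, 3.85 and 3.44 on the arrays labelled NAA50-depleted, against 5.40, 4.93, 4.61 and 5.15 in wild type. The groups did not overlap, and the difference was -1.37 ± 0.18 (SE, n = 4 arrays per group, adjusted p = 0.000381). PTAC2, a pentatricopeptide repeat protein of the plastid transcription complex, measured 5.00, 5.12, 4.84 and 4.93 on the arrays labelled NAA50-depleted, against 6.12, 5.94, 5.57 and 6.03 in wild type. It fell by 0.94 ± 0.14 (adjusted p = 0.000896). MURE and PTAC7 also fell, by 0.70 ± 0.16 and 0.54 ± 0.13. The plastid loci measured on the same arrays had the median of -0.020 given above, within the limits that their ranks set.

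Of 9 genes of organelle DNA maintenance, 1 fell, against 7.58% of all loci. This was RECA3, a recombination protein of mitochondria. It measured 4.08, 3.71, 3.58 and 4.17 on the arrays labelled NAA50-depleted, against 4.34, 4.60, 4.63 and 4.64 in wild type. The groups did not overlap, and the difference was -0.67 ± 0.15 (SE, n = 4 arrays per group, adjusted p = 0.0121). Of 19 genes of organelle RNA turnover, splicing and editing, 1 fell, against 7.58% of all loci. This was MORF9, a plastid RNA editing factor, which fell by 0.40 ± 0.12 (adjusted p = 0.0446). The MORF9 call was lost without any single array other than wild type replicate 3. The median of the 19 was 0.077.

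The nuclear partner subunits of the respiratory chain lay on the other side of 0 from most mitochondrial loci. Their median was -0.23, and all 24 differences were negative, whereas 3 were positive after cyclic loess normalization and 1 was positive when wild type replicate 1, labelled-depleted replicate 1 or labelled-depleted replicate 2 was left out. All but 1 of the 24, AT5G13430, lay above the 75th percentile in wild type. Called lower were 3 of the 24 and called higher 0, against 19.5% and 10.0% of all loci above the 75th percentile. At an unadjusted p under 0.05, 7 were lower and 0 higher, against 31.9% and 14.7% of all loci of that level, so the count lower is near that share. All loci of that level had a median of -0.14, and 4526 of 6944 were negative. AT3G27240, which has no symbol in the RefSeq table, measured 5.60, 4.96, 5.75 and 5.13 on the arrays labelled NAA50-depleted, against 6.43, 6.40, 6.09 and 6.33 in wild type. The difference was -0.95 ± 0.18, with an adjusted p of 0.00396 (SE, n = 4 arrays per group).

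CYTC-2, a cytochrome c, measured 4.32, 4.14, 4.11 and 3.70 on the arrays labelled NAA50-depleted, against 5.40, 5.12, 4.87 and 4.62 in wild type. The difference was -0.93 ± 0.18, with an adjusted p of 0.00532 (SE, n = 4 arrays per group). GAMMA CA2, a carbonic anhydrase-like subunit of complex I, fell by 0.50 ± 0.11 (adjusted p = 0.00923). These nuclear genes and the mitochondrial loci were not tested against each other.

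Of 9 genes known to respond to mitochondrial stress, 2 rose and 0 fell, against 6.95% and 7.58% of all loci, and the median was 0.031. The other 7 were not called, and 4 of the 9 differences were negative. DIC2, a dicarboxylate carrier of the inner mitochondrial membrane, measured 8.88, 9.68, 9.46 and 8.36 on the arrays labelled NAA50-depleted, against 5.42, 5.24, 5.89 and 6.23 in wild type. The groups lay far apart, and the difference was 3.40 ± 0.29 (SE, n = 4 arrays per group), which is 10.6-fold, with an adjusted p of 2.43e-05. BCS1, a protein of the outer mitochondrial membrane also known as OM66, measured 3.47, 3.36, 2.71 and 2.23 on the arrays labelled NAA50-depleted, against 1.61, 1.50, 1.72 and 1.53 in wild type. It rose by 1.35 ± 0.24 (adjusted p = 0.00264). Its wild type values, and those of labelled-depleted replicates 3 and 4, lay under the array median of 2.73. No signal over background has been shown in that range, so the size of the change is uncertain.

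**Figure D5:**
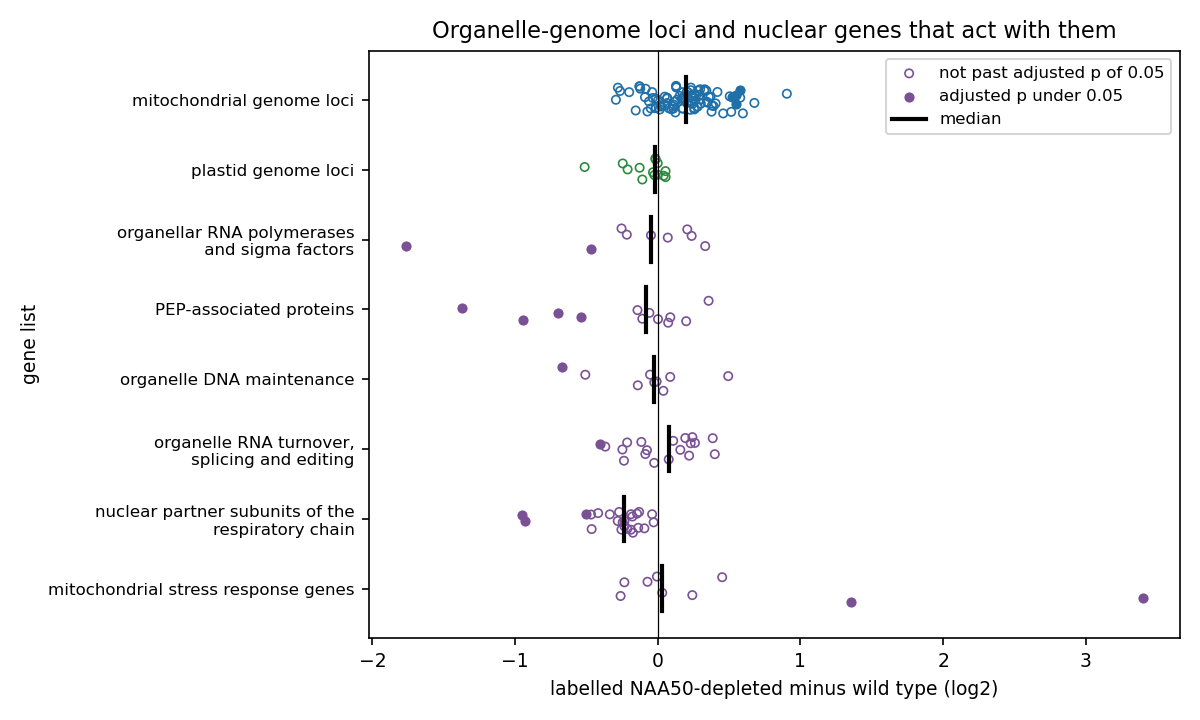
Difference (labelled NAA50-depleted minus wild type, log2) of each mitochondrial and plastid locus and of each gene in the 6 nuclear lists, with filled points for an adjusted p under 0.05, open points for the rest and a black bar for the median. The median is 0.20 for the mitochondrial loci, -0.020 for the plastid loci (0.090 after cyclic loess normalization) and -0.23 for the nuclear partner subunits of the respiratory chain, and DIC2 stands at 3.40.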

How the data were processed

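Rosette leaves gave 8 Affymetrix arrays, 4 labelled NAA50-depleted and 4 wild type, grouped by title. Per the submitters' processing notes, the deposited values come from RMA, a method that subtracts background, gives all arrays one distribution and summarises probes on a log2 scale. The sources used here do not give the RMA version, chip definition, genome build or log base, and log2 was taken because RMA gives it. Values of different loci come from different probes and are not compared as abundance. The number of arrays limits the precision.

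From these values the groups were compared at all 27826 loci in limma 3.58.1 (R 4.3.3; lmFit and eBayes, no covariate, no filter), two-sided, with Benjamini-Hochberg adjustment over all loci; a locus was called at an adjusted p under 0.05. The fit was tested on simulated data. Loci with values within 0.05 of each other on all 8 arrays were taken as sharing values.

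None of the 106 organelle identifiers (0) matched the RefSeq gene table (TAIR10.1), against 27241 nuclear ones, so organelle loci carry no names or roles, a planned split by function was not made, and no sequences or coordinates are printed. Named were every called member, the members with the largest positive and negative difference, every plastid member, and of each nuclear list the 2 largest changes each way among those called; other named loci were chosen after their values were seen. The members and lists were chosen with earlier results of these data known. Alternatives were a replicate block, cyclic loess normalization, centring on nuclear loci with a mean above 4, testing only loci that exceed the 25th percentile on 4 or more arrays, a variance model with trend and robust fitting, array weights, leaving out each array, a threshold of 0.01, and classes by the mean over all 8 arrays. Counting loci with shared values once, or leaving them out, was added after the data were seen.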

Additional observations from a re-analysis of the deposited data

Results flagged for a closer look

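Dixon's ratio was computed for the named loci to find an array that stands apart within its group of 4; chance marks about 1 group in 20. Over all members, 10 of 212 groups of 4 arrays were marked, or 4.72%, close to that share. ATCG00230 measured 8.60 on labelled-depleted replicate 1, below the 8.82 to 8.84 of the other 3 labelled-depleted arrays. ATCG00020 measured 13.33 on wild type replicate 2, against 13.27 on each of the other wild type arrays, a step of 1 rank at the top of the table. RECA3 (AT3G10140) measured 4.34 on wild type replicate 1, below the 4.60 to 4.64 of the other wild type arrays.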

How the results depend on the processing

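The median difference of the mitochondrial loci stayed positive under all alternatives run. The number of mitochondrial loci called higher was 10 after cyclic loess and with a trended, robust variance, 1 at an adjusted p under 0.01, 1 among loci sharing values with no other, and 1 to 9 with an array left out. Over all 27826 loci, 2267 were called higher after cyclic loess and 1926 with the trended, robust variance. The plastid median was 0.090 after cyclic loess, and 0 to 1 plastid loci were called lower with an array left out. After cyclic loess ATCG00020 turned to 0.088, ATCG00240 to 0.0097, ATCG00670 to 0.093, ATCG00990 to 0.082 and ATCG01140 to 0.091. With an array left out, ATCG00250 ranged from -0.018 to 0.088, ATCG00670 from -0.038 to 0.0028, ATCG00990 from -0.053 to 0.0028 and ATCG01140 from -0.045 to 0.0068. Sigma factors and polymerases called lower were 1 after cyclic loess and at an adjusted p under 0.01, and 1 to 2 with an array left out; PEP-associated genes called lower were 2 at an adjusted p under 0.01. For RNA turnover, splicing and editing, 1 gene was called higher after cyclic loess, centring, the filter on dim loci and array weights (0 to 1 with an array left out), and 0 lower with the replicate block, cyclic loess, array weights and an adjusted p under 0.01 (0 to 1). At the chromosome 2 run, loci called higher were 2 with the block, 13 after cyclic loess, 10 with the trended variance, 0 at an adjusted p under 0.01 and 1 to 9 with an array left out; 1 was called lower with the filter, the trended variance and array weights (0 to 1). Same-numbered arrays correlated at -0.049 to 0.039 after group means were removed, so no strong shared effect of the number was visible. Whether same-numbered arrays were handled together is not stated in the labels. With the replicate block 5 mitochondrial loci were called higher, 3 of them among the 4 of the fit without it. The causes of these changes were not tested. Dim loci and loci at the top of the array are those where signal limits what can be seen.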
